A study of Mus musculus with 8 samples.

Results

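Whole blood of mice was examined for 8 genes whose proteins carry large neutral amino acids, glutamine and glycine across the plasma membrane. They were Slc7a5, Slc3a2, Slc43a1, Slc16a10, Slc6a9, Slc38a5, Slc1a5 and Slc38a2. The genes were selected by transport function and on RST minus control differences of these same arrays that were already known, so the differences between the groups are given as a description and not as a test of these genes. Every probe set annotated to 1 of these genes alone was taken. A probe set is a group of short probes on the array that reports 1 transcript. This gave 15 probe sets of the 45101 in the table, and each of the 8 genes had at least 1. The restraint stress (RST) group held 4 female C57BL/6J mice, aged 6 to 8 weeks at purchase and then acclimated. They were confined in a ventilated tube for 6 h per day. The control group held 4 mice of the same sex, strain and age that lacked food and water during those hours and were left alone otherwise. The labels name no transgene or drug in either group, and blood was taken on Day 7. RNA of each mouse (30 ng) was amplified, labeled and hybridized to its own Affymetrix GeneChip, and all values below are log2 expression levels, on which a difference of 1.00 is a doubling of signal.

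Large neutral amino acids such as leucine and phenylalanine enter most growing cells through a pair of proteins. Slc7a5 encodes LAT1, the light chain that forms the transport path, and Slc3a2 encodes 4F2hc (CD98), the heavy chain that brings LAT1 to the surface. LAT1 is an exchanger, so it depends on other carriers that supply its exchange substrates or let amino acids leave. Red cell precursors use much glycine, which is joined to succinyl-CoA in the first step of heme synthesis, and leucine is a signal to the kinase complex mTORC1, which raises protein synthesis. Amino acid transport of this kind is also high in dividing lymphocytes.

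A probe set was tested when it lay above the median of its array in at least 2 of 4 mice of a group. Of the 15 probe sets, 13 passed this filter, in both groups in each case, and 2 did not. Each gene was represented by its brightest tested probe set. In limma none of the 8 genes passed both thresholds (adjusted p under 0.05, fold change above 1.5), nor did any of the 25084 tested probe sets (0%), where the smallest adjusted p was 0.32. At an unadjusted p under 0.05 and the same fold change, 5 of the 8 genes were higher in RST mice against 2.8% of all 11762 genes, and 1 was lower against 12.8%. RST and control values did not overlap for 4 of the 8 genes, all 4 higher in RST mice, against 2.37% of genes, and for none lower, against 6.57%. Since earlier values were known when the genes were selected, nothing is read from these counts. The median log2 fold change over all genes was −0.24. The 75th percentile of the log2 levels was 4.50 in RST mouse 4 and 5.06 to 5.37 in the other 7 mice. RST mouse 4 held the lowest of the 8 values in 41.5% of tested probe sets. The mean of 18 hybridization control probe sets was 11.93 and 11.90 in control mice 1 and 2 and 12.35 to 12.74 in the others.

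Both chains of the large neutral amino acid exchanger were higher in each RST mouse than in any control mouse, by similar amounts. Slc7a5 was at 9.29, 9.37, 9.83 and 10.17 in control mice 1 to 4 and at 11.17, 11.31, 11.01 and 10.69 in RST mice 1 to 4. The lowest RST mouse lay 0.52 above the highest control mouse. The group means were 9.67 ± 0.41 (SD, n = 4) and 11.05 ± 0.27 (SD, n = 4), a log2 fold change of 1.38 ± 0.29 (SE from limma) or 2.60-fold, and 1.62 relative to the median gene. Slc3a2 was at 7.39, 7.30, 7.69 and 7.97 in the control mice and at 9.21, 9.42, 8.56 and 8.44 in the RST mice. Again no value overlapped, and the gap was 0.48. The log2 fold change of Slc3a2 was 1.32 ± 0.30 (SE), or 2.50-fold, and 1.56 relative to the median gene. The difference between the log2 values of Slc7a5 and Slc3a2 within an array shifted by 0.06 ± 0.15 (SE) between the groups, less than its spread between mice (SD 0.13 in control and 0.26 in RST mice). In both genes RST mouse 2 was highest, RST mouse 4 was the lowest of the RST mice, and control mouse 4 was the highest of the control mice. With a trended and robust prior in limma, 35 of the 25084 tested probe sets passed. By its brightest probe set, Slc7a5 was then the only one of the 8 genes to pass, with an adjusted p of 0.044. Its adjusted p ran from 0.044 to 0.98 over the alternatives. The 8 genes were selected with differences of these arrays known, so nothing is read from this pass.

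**Figure D1:**
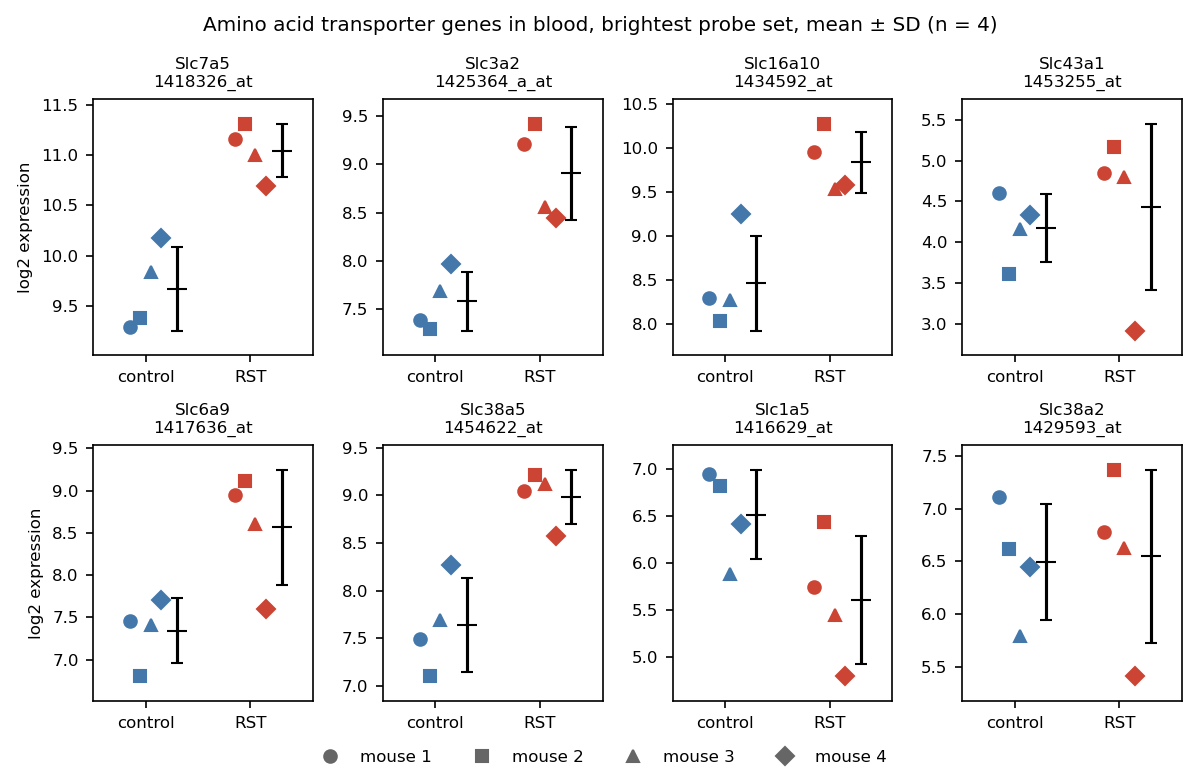
Log2 expression (y axis) of the 8 transporter genes in 4 control and 4 RST mice, brightest probe set of each gene, with 1 symbol per mouse and black bars for mean ± SD (n = 4). A symbol gives the mouse number within its group and pairs no mice. The values of Slc7a5, Slc3a2, Slc16a10 and Slc38a5 do not overlap between groups, RST mouse 4 lies within the control range for Slc6a9, and Slc1a5 has the lower mean in RST mice.

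Facilitated carriers let amino acids run down their gradient, and the 2 such genes here differed. Slc16a10 encodes TAT1, a carrier of the aromatic amino acids. Its brightest probe set was at 8.29, 8.03, 8.27 and 9.25 in control mice 1 to 4 and at 9.96, 10.28, 9.54 and 9.58 in RST mice 1 to 4, a log2 fold change of 1.38 ± 0.32 (SE). The groups did not overlap, and control mouse 4 came within 0.29 of the lowest RST mouse. Relative to the median gene the value was 1.62. Its next brightest probe set was at 6.55, 6.15, 6.74 and 7.58 in control and at 8.85, 8.93, 8.39 and 8.08 in RST mice, with a log2 fold change of 1.81 ± 0.34 (SE). Its fold change exceeded that of the brightest probe set by 0.43 ± 0.12 (SE), although both report the same gene. A dimmer probe set of Slc16a10 was at 6.81, 7.17 and 6.93 in RST mice 1 to 3 but at 4.34 in RST mouse 4, below all control mice (4.80 to 6.20). The dimmest probe set did not pass the filter and stayed between 1.89 and 2.39 in all mice. When the tested probe sets of Slc16a10 were averaged, the groups overlapped.

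Slc43a1, which encodes LAT3, a carrier of leucine and other branched-chain amino acids, was dim. It was at 4.60, 3.61, 4.17 and 4.33 in control mice and at 4.85, 5.16, 4.79 and 2.92 in RST mice. RST mice 1 to 3 lay above all control mice and RST mouse 4 below them all. The log2 fold change was 0.26 ± 0.46 (SE), and it was 0.76 without RST mouse 4 and 0.01 without RST mouse 2.

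Of the glycine carriers, Slc6a9 encodes GlyT1, which takes up glycine with sodium and chloride, and Slc38a5 encodes SNAT5, which moves glutamine, serine and glycine. Slc38a5 was at 7.49, 7.10, 7.70 and 8.27 in control mice and at 9.04, 9.21, 9.12 and 8.57 in RST mice. No RST value fell below a control value, and the log2 fold change was 1.34 ± 0.30 (SE), or 1.59 relative to the median gene. Slc6a9 was at 7.45, 6.80, 7.41 and 7.71 in control mice and at 8.95, 9.12, 8.61 and 7.60 in RST mice. RST mice 1 to 3 lay above every control mouse, and RST mouse 4 lay below control mouse 4. The log2 fold change of Slc6a9 was 1.23 ± 0.36 (SE), and it was 1.55 without RST mouse 4. Relative to the median gene it was 1.47. Its other, dimmer probe set was at 3.16 to 3.68 in control and 3.70 to 5.01 in RST mice, a log2 fold change of 0.84 ± 0.32 (SE).

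The exchanger and the system A carrier of glutamine and small neutral amino acids had overlapping groups. Slc1a5 encodes ASCT2, which exchanges glutamine for other small neutral amino acids. It was at 6.95, 6.82, 5.89 and 6.41 in control mice and at 5.74, 6.44, 5.45 and 4.80 in RST mice. The means were 6.52 ± 0.48 and 5.61 ± 0.68 (SD, n = 4), and the groups overlapped, since RST mouse 2 lay above control mice 3 and 4. The log2 fold change of Slc1a5 was −0.91 ± 0.37 (SE), or −0.66 relative to the median gene. It was −0.47 with the hybridization controls as a covariate, −0.54 without control mice 1 and 2, −0.59 with quantile-normalized values and −1.04 when control probe sets set the scale. Leaving out 1 mouse gave −1.19 to −0.64. The other probe set of Slc1a5 did not pass the filter and lay between 2.31 and 2.93.

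Slc38a2 encodes SNAT2, a sodium-coupled carrier whose level is known to respond to amino acid shortage. Its 3 probe sets did not run together. The brightest was at 7.11, 6.62, 5.79 and 6.44 in control and at 6.78, 7.37, 6.63 and 5.41 in RST mice, a log2 fold change of 0.05 ± 0.42 (SE). The next was at 6.63, 6.87, 6.51 and 6.36 in control and at 5.60, 6.66, 6.18 and 5.59 in RST mice, a log2 fold change of −0.58 ± 0.30 (SE). The dimmest had a log2 fold change of 0.01 ± 0.33 (SE). The first and second of these differed in their change by 0.64 ± 0.38 (SE), and the groups overlapped in this difference. No direction could be given for Slc38a2.

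Over all 15 probe sets, 6 did not overlap between the groups, all of them tested and higher in RST mice (2.23% of tested probe sets), and none was lower without overlap (5.76%). They belonged to Slc7a5, Slc3a2, Slc38a5, Slc6a9 and, with 2 probe sets, Slc16a10.

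**Figure D2:**
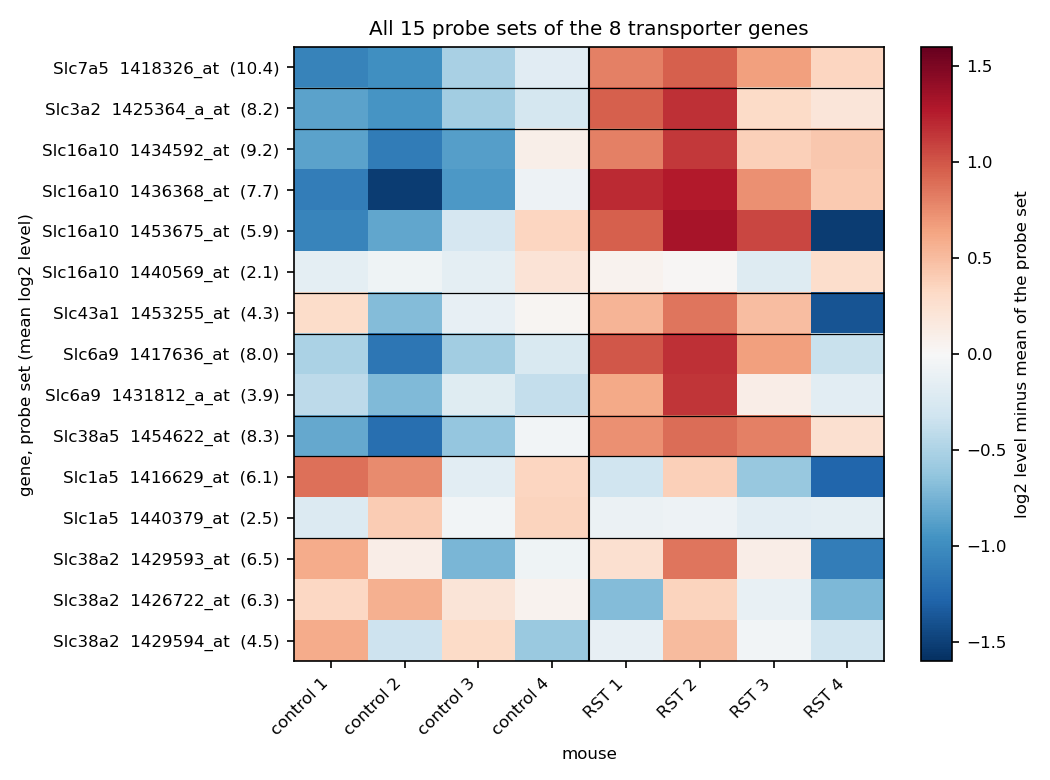
Log2 level minus the mean of the probe set (color) for all 15 probe sets of the 8 genes (rows, with the mean log2 level in parentheses) in 8 mice (columns). The rows of Slc7a5, Slc3a2 and Slc38a5 and the 2 brightest of Slc16a10 are above their mean in all 4 RST mice, and RST mouse 4 is the lowest mouse for the third Slc16a10 probe set at 4.34 and for Slc43a1 at 2.92.

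Across the 8 mice, Slc38a5, Slc3a2 and Slc16a10 were among the 14 genes nearest to Slc7a5. Likeness was measured as the root mean square distance between log2 values, each centered on its gene mean. Of the 11761 other genes, the nearest to Slc7a5 was Slc38a5, at 0.15 log2 units. Next came Spire1, an actin nucleation factor (0.17), Cul4a, a ubiquitin ligase scaffold (0.18), and Fbxo7, a ubiquitin ligase subunit (0.18). Slc3a2, the partner chain, was at rank 5 (0.18). Slc16a10 was at rank 14 and Slc6a9 at rank 99, whereas Slc43a1 was at rank 3335, Slc38a2 at rank 4954 and Slc1a5 at rank 10541. The distance includes the group difference and shares the arrays, so it is a description with no test. In order of log2 fold change among the 11762 genes, from the highest, Slc16a10 was at rank 13, Slc7a5 at 14, Slc38a5 at 17, Slc3a2 at 22 and Slc6a9 at 33. These neighbors differed by less than their standard errors. RST mouse 2 was highest in all 4 genes that did not overlap, and control mouse 4 was the highest control mouse in all 4. The mean of the erythroid markers given below was likewise highest in RST mouse 2 (9.18), with control mouse 4 the highest control mouse (8.51). This order is thus not particular to the transporters, and its share over all genes was not computed.

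The proximal promoters of these 3 genes are shown, because they followed Slc7a5 most closely of the 8 and have an entry in the RefSeq promoter table (GRCm38.p6). Of the 8 genes, 6 had an entry, with 8 start sites. Each sequence is the 250 bases before the start site, 5′ to 3′ on the strand of the gene. Capitals mark each match on either strand to CCNCNCCC, where N is any base. This is a loose form of the CACCC box bound by KLF1 and related factors.
Slc3a2, chr19:8713898-8714147, minus strand: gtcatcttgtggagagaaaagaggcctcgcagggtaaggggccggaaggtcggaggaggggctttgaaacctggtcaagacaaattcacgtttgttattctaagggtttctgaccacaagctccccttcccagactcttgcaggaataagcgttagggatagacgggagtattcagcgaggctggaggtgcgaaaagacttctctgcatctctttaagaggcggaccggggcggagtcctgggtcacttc
Slc16a10, chr10:40142255-40142504, minus strand: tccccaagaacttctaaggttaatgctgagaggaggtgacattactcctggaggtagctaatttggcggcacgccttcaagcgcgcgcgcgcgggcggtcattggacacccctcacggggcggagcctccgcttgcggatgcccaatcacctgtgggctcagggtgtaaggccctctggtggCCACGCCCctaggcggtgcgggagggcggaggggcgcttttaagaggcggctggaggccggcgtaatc
Slc38a5, chrX:8271131-8271380, plus strand: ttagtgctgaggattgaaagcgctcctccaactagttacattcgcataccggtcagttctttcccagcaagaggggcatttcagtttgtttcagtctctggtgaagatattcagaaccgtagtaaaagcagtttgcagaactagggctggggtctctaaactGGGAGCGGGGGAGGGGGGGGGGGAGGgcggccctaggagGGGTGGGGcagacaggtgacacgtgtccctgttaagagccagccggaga
Slc3a2 had no match, Slc16a10 had 1 (CCACGCCC, from 68 to 61 bases before the start site), and Slc38a5 had 9, of which 8 form a chain of overlapping matches in a G-rich run. Among these matches only GGGTGGGG in Slc38a5, outside that chain, holds the letters CACCC, read on the other strand. Of all 32851 promoter windows in the table, 45.9% hold this motif. The GATA site (AGATAA or TGATAA, 16.6% of windows), the amino acid response element core bound by ATF4 (TGATGNAA, 3.45%) and the palindromic glucocorticoid response element (GNACANNNTGTNC, 0.387%) had no match in the 8 windows. A match is a description of letters, and its absence says only that these letters are not in this window.

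In whole blood the level of a transcript depends on the cells present, and fewer cells of a type cannot be told apart from less RNA per cell. The marker genes of red cell precursors and of leukocytes are therefore given beside the transporters. Of 21 erythroid markers, 17 were tested and 16 had a higher mean in RST mice. The 3 with the smallest unadjusted p were Ank1, erythrocyte ankyrin (log2 fold change 1.33), Epb42, protein 4.2 (1.36), and Tspo2, an erythroid membrane protein (1.05). The mean log2 level of the 17 markers was 7.57 to 8.51 in control and 8.31 to 9.18 in RST mice, which overlapped, and its mean difference was 0.66. All 10 tested B cell markers had a lower mean, and their mean level was 7.65 to 8.65 in control and 6.96 to 7.36 in RST mice, with Ly6d at −1.30, Fcrla at −1.39 and Fcer2a at −1.24. T cell markers (11 of 11 lower in mean) were at 7.01 to 7.61 and 5.93 to 7.11, with Cd3d at −0.99, Cd8b1 at −1.03 and Cd5 at −1.15. Monocyte markers (7 of 9 lower) were at 6.99 to 8.05 and 6.58 to 7.48, with Ms4a6c at −1.18, Ly86 at −0.95 and Ctss at −0.81. NK cell markers (6 of 7 lower) were at 6.77 to 7.48 and 5.99 to 7.02, with Gzma at −0.94, Klrd1 at −0.92 and Klrk1 at −0.91. Neutrophil markers (6 of 10 lower) were at 7.10 to 8.24 and 6.27 to 8.13. Ltf was at −1.79, Camp at −2.37 and S100a9 at −0.55, all 3 with overlap. Camp varied from 3.88 to 9.79 among control mice. The 4 neutrophil markers with a higher mean reached at most 0.35, in Cxcr2. Over all 10 the middle log2 fold change was −0.29, or −0.04 relative to the median gene. Platelet markers (11 of 12 higher) were at 9.24 to 9.58 and 9.26 to 9.86, with Vwf at 0.39, Mmrn1 at 0.33 and Gp6 at 0.33.

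Set against the erythroid markers of the same array, the separation of the transporter genes depended on which markers were used. With the mean of all 17 markers, 5 of the 8 genes were higher in every RST mouse than in any control mouse. The log2 value of Slc7a5 minus this mean was 1.10 to 1.80 in control and 2.11 to 2.38 in RST mice, a difference between the groups of 0.71 ± 0.17 (SE). The same quantity differed by 0.71 ± 0.22 (SE) for Slc16a10, 0.68 ± 0.14 (SE) for Slc38a5, 0.66 ± 0.16 (SE) for Slc3a2 and 0.56 ± 0.16 (SE) for Slc6a9, each without overlap between the groups. The separation was narrow for 3 of them. The highest control and lowest RST mouse were at 0.73 and 0.75 for Slc16a10, at −0.27 and −0.23 for Slc3a2, and at −0.74 and −0.71 for Slc6a9. Of all genes, 0.272% were higher without overlap on this scale and 32% were lower. The 8 genes were selected with differences of these arrays known, so nothing is read from their counts without overlap against markers. Some of the 17 markers were very bright and differed little, such as Alas2, the first enzyme of heme synthesis, at 13.57 in control and 13.68 in RST mice, and Fech, its last enzyme, at 13.12 and 13.33. The 5 markers of a mean log2 level above 11 were Alas2 (log2 fold change 0.10), Fech (0.21), Hbb-b2 (0.22), Hba-a2 (0.41) and Slc4a1 (0.63). Without these 5, named and left out after their values were seen, the mean of the other 12 differed by 0.81 between the groups. Against these 12, only Slc38a5 was higher without overlap (0.068% of genes), with a difference of 0.53 ± 0.20 (SE). Its separation was narrow too, with the highest control mouse at 1.38 and the lowest RST mouse at 1.41. Slc7a5 then differed by 0.57 ± 0.24 (SE), and its highest control mouse, at 3.65, lay above its lowest RST mouse, at 3.52. Slc16a10, at 0.57 ± 0.27 (SE), Slc3a2, at 0.51 ± 0.20 (SE), and Slc6a9, at 0.42 ± 0.13 (SE), overlapped as well. For Slc1a5 the difference was −1.57 ± 0.43 (SE) against all 17 markers and −1.72 ± 0.46 (SE) against the 12, lower in each RST mouse both times, as were 33.5% of genes against the 12. Slc1a5 was also lower without overlap against the platelet markers, at −1.13 ± 0.30 (SE). Its groups overlapped against the markers of T cells (−0.18 ± 0.17, SE), B cells (0.15 ± 0.31, SE), monocytes (−0.38 ± 0.34, SE) and neutrophils (−0.37 ± 0.39, SE). The share of all genes was not computed for the platelet and leukocyte scales, so nothing is read from the overlap there. The part of changed cell numbers in these values was not tested.

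**Figure D3:**
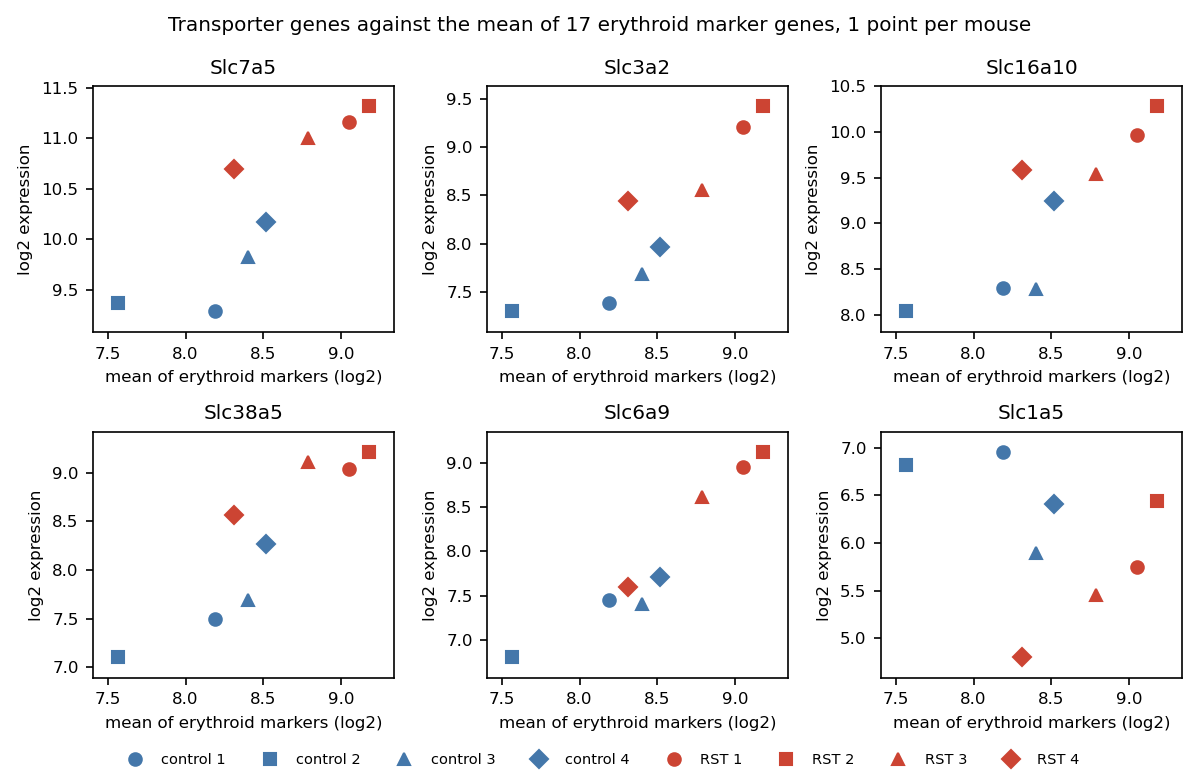
Log2 expression of 6 transporter genes (y axes) against the mean log2 level of 17 erythroid marker genes (x axes), 1 point per mouse, with control mice in blue and RST mice in red. RST mouse 4 and control mouse 4 have marker means of 8.31 and 8.51, and in these mice Slc7a5 is at 10.69 and 10.17, Slc6a9 at 7.60 and 7.71, and Slc1a5 at 4.80 and 6.41.

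Other amino acid carriers are given for comparison. Of 35 other plasma membrane amino acid transporter genes, 17 were tested and none was called. Of these 17, none was higher in RST mice without overlap, against 2.37% of all genes, and 2 were lower, against 6.57%. A higher mean was seen in 9 and a lower mean in 8, and the median log2 fold change was 0.05, or 0.30 above the median gene. The 2 without overlap were Slc7a1, which encodes the cationic amino acid carrier CAT1, at −0.68 ± 0.26 (SE), and Slc38a1, a glutamine carrier related to Slc38a2 and Slc38a5, at −0.74 ± 0.27 (SE). Slc36a4, a proton-linked family member, was at −1.10 ± 0.39 (SE) with overlapping groups. The highest of the 17 was Slc6a6, the taurine carrier, at 0.62. Of 17 genes for carriers of mitochondria and lysosomes, 16 were tested, none was without overlap, 13 had a lower mean, and the median was −0.43. Slc15a4, a lysosomal carrier, was at −1.12, Slc25a15, the mitochondrial ornithine carrier, at −0.75, and Slc38a9, a lysosomal arginine sensor of mTORC1, at −0.71.

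Of the 32 genes by which amino acids reach mTORC1, 29 were tested and none was called. Their median log2 fold change was −0.38, and 20 had a lower mean. In each direction 1 gene was without overlap, against 2.37% of all genes higher and 6.57% lower. Fnip2, a partner of folliculin, was at 5.24 ± 0.23 in control and 6.07 ± 0.54 in RST mice (SD, n = 4), and Lamtor2, a Ragulator subunit chosen after its values were seen, had a log2 fold change of −1.09. The leucine sensor family genes Sesn1 and Sesn3 were at −0.82 ± 0.29 (SE) and −1.01 ± 0.36 (SE), both with overlap. Slc7a5 and Slc3a2 are known targets of ATF4, the factor of the amino acid response, and 18 of 22 listed ATF4 response genes were tested. Their median was −0.14, and 2 were higher without overlap (2.37% of all genes) and none lower (6.57%). These were Mthfd2, a mitochondrial folate enzyme, at 1.78 ± 0.42 (SE), and Pck2, mitochondrial phosphoenolpyruvate carboxykinase, at 1.26 ± 0.30 (SE). Asns, asparagine synthetase, was at 3.91 ± 0.88 in control and 5.97 ± 1.41 in RST mice, with overlap.

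Among 23 other genes of surface or organelle membranes of red cells and their precursors, mainly of transporters and channels, 20 were tested. Their median log2 fold change was −0.003, with 10 higher and 10 lower in mean. Slc4a1, the anion exchanger band 3, at 0.63 ± 0.26 (SE), and Slc25a37, at 0.42, were higher without overlap. Slc25a37, which was chosen after its values were seen, encodes mitoferrin, a carrier of the mitochondrial and not the surface membrane. Of all genes, 2.37% were higher without overlap. Kel, a blood group antigen, was at 1.11 ± 0.36 (SE), and Slc11a2, an iron carrier, at −0.81 ± 0.31 (SE), both with overlap. Slc4a1 and Kel are also on the erythroid marker list. The highest value on this list, that of Kel, lay below those of Slc7a5, Slc3a2, Slc16a10, Slc38a5 and Slc6a9. Those genes were selected with such differences known, so nothing is read from this order.

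**Figure D4:**
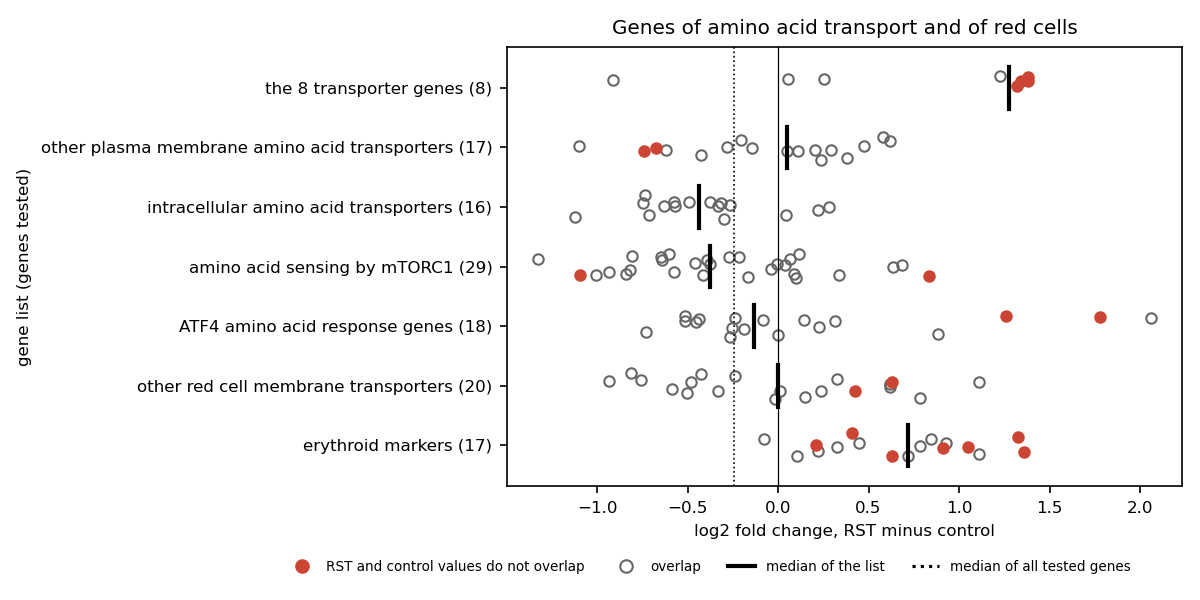
Log2 fold change, RST minus control (x axis), of each tested gene in 7 gene lists (y axis, with the number of genes tested), with filled points where the values of both groups were fully apart and black bars for list medians. Of the 8 transporter genes, 5 sit between 1.23 and 1.38, to the right of all 17 other plasma membrane amino acid transporters, whose highest value was 0.62. The 8 genes were selected with such differences known, so nothing is read from this position. Of the erythroid markers, Epb42 (1.36) and Ank1 (1.33) sit in the same range.

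Across processing choices the 5 higher transporter genes kept their direction, though not every choice could have changed it. Another filter, prior or test and the replicate block leave a log2 fold change as it is, so they bear only on the call. The genes were selected with differences of these arrays known, so nothing is read from the kept direction. Over 20 alternatives the log2 fold change was 1.04 to 1.55 for Slc7a5, 1.08 to 1.47 for Slc3a2, 1.08 to 1.64 for Slc16a10, 1.00 to 1.55 for Slc38a5 and 1.01 to 1.55 for Slc6a9. The lowest value of each was reached without control mice 1 and 2. Slc1a5 ran from −1.19 without RST mouse 2 to −0.47 with the hybridization controls as a covariate.

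**Figure D5:**
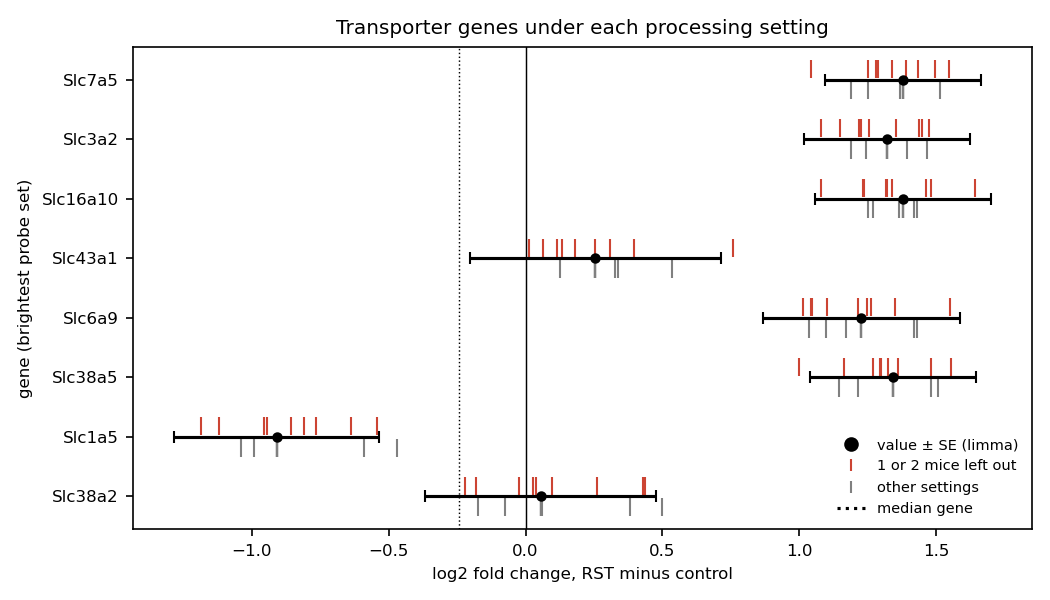
Log2 fold change, RST minus control (x axis), of the 8 genes (y axis), with black points and bars for the value ± standard error from limma, red ticks for values with 1 or 2 mice left out and gray ticks for the other alternatives. The dotted line is the median gene at −0.24. Slc38a2 falls on both sides of 0, from −0.22 to 0.50.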

How the data were processed

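RNA from the blood of 4 RST and 4 control mice was hybridized to 1 Affymetrix array each. The deposited table holds 1 log2 value per probe set and array, which the authors had corrected for background, normalized and summarized. Tools listed in the submitters' processing notes are Partek, RMA and Affymetrix Expression Console 1.2.0.20. GSRMA is given in the methods. Presence calls and scanner values were not used here. The 64 control probe sets were left out, and RST was compared with control in limma 3.58.1 under R 4.3.3, with Benjamini-Hochberg adjustment over 25084 probe sets. Gene names came from the platform annotation for 34958 probe sets with 1 gene, and 34754 were updated through the Entrez identifier with the RefSeq table of GRCm38.p6. The genes, the lists and the named genes were chosen with earlier results of these data known. Named are the 8 transporter genes, the 3 genes of smallest p in each of 12 lists, and the 5 genes nearest to Slc7a5. Any other gene is said to be chosen after its values were seen, or is the highest of its list. The fit was tested on simulated data. Alternative runs used no filter, other scalings, a floor at percentile 25, another prior or test, array weights, a covariate, a replicate block, averaged probe sets, and each array left out. Leaving out control mice 1 and 2 together, and leaving out the brightest erythroid markers, were added after seeing the data. Each array is a different mouse, and array batches are not given in the sources used here. The paper states that mice were housed in groups and that whole cages were assigned to RST or control. The cage of each mouse is not given, so effects of cage cannot be told apart from those of RST. All standard errors and p-values treat the mice as independent. The number of arrays limits the precision. Figures were drawn with matplotlib 3.10.9.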

Additional observations from a re-analysis of the deposited data

Results flagged for a closer look

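Slc43a1 in RST mouse 4 lay far below the other RST mice, at 2.92 against 4.79 to 5.16. The gap to the nearest mouse was 0.837 of the range of the group, above Dixon's critical value for 4 samples. Of the 16 groups of 4 values examined for the 8 genes this was the only one past that value, and chance gives about 1 in 20.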

How the results depend on the processing

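Of 160 log2 fold changes of the 8 genes under the alternatives, 154 kept their direction and their side of the threshold, 1 moved past the threshold and 5 changed sign. The one past it was Slc7a5 with the trended and robust prior (log2 fold change 1.38), where 35 of 25084 probe sets and 1 of the 8 genes were called. Under the other settings 0 were called, among them a test per probe set without a shared prior, which for 2 groups equals the analysis of variance in the methods. All 5 changes of sign were of Slc38a2, at −0.074 after scaling to the control probe sets, −0.17 with its probe sets averaged, and −0.22 to 0.43 on leaving out 1 mouse. Another filter, prior or test and the replicate block could not change a sign. The 4 genes without overlap became 5 after quantile normalization or without control mouse 4, and 6 without RST mouse 4, when Slc6a9 and Slc43a1 joined. Of all genes 4.69%, 4.28% and 6.91% were higher without overlap in these settings, against 2.37%. Without RST mouse 2, Slc1a5 was lower without overlap, as were 16.4% of genes. The median of all tested probe sets was −0.20, and −0.02 after quantile normalization. The numbers of the mice pair no animals, and deviations of same-numbered mice correlated between −0.24 and 0.42. The replicate block called 0 probe sets and 0 of the 8 genes. List medians relative to the median gene moved beyond the spread between mice as follows. With no filter the intracellular carriers lay at −0.39 and the mTORC1 list at −0.28. The mTORC1 list lay at −0.046 after quantile normalization, −0.010 with array weights and −0.021 with probe sets averaged. The ATF4 list lay at 0.30 with the covariate and 0.28 without control mice 1 and 2. On leaving out 1 mouse the intracellular list ran from −0.35 to −0.10 and the mTORC1 list from −0.21 to −0.019. The ATF4 list ran from 0.015 to 0.32. The other plasma membrane carriers (0.06 to 0.52) and the red cell transporters (0.07 to 0.36) stayed within that spread. RST mouse 2 gave the lowest intracellular and ATF4 values and the highest mTORC1 and plasma membrane values when left out. The causes were not tested.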
